A study of Mus musculus with 8 samples.

Results

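The regions described here are 450 stretches of the mouse genome that were highly methylated in untreated embryonic stem cells and less methylated after 5 days with vitamin C. The genome was divided into tiles of 1 kb, and a tile was eligible when it held 3 to 10 CpG sites with 10 or more reads in all 8 libraries, on chromosomes 1 to 19. There were 35149 eligible tiles, and 10884 of them were methylated at 80% or more in the untreated libraries of both days. Members were chosen from these: a tile had to lie at least 20 percentage points below the untreated day 5 library in both day 5 libraries that received vitamin C. The 450 members are 4.13% of the highly methylated tiles and 1.28% of the eligible ones.

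The cells were embryonic stem cells of mouse strain 129/SvP, plated sparsely in serum with LIF, a cytokine that keeps such cells undifferentiated. They received vitamin C at 500 µM, the amino acid L-proline at 1 mM, both together, or neither. Each of these 4 conditions has libraries of day 2 and day 5. Each condition and day is 1 library, so no replicate check exists, and every test on reads compares 2 libraries and not 2 treatments. Methylation was read by reduced representation bisulfite sequencing, which samples CpG-rich fragments of the genome. A tile's level is its share of methylated reads over all its shared CpGs, in percent, and differences are in percentage points.

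DNA methylation at CpG sites is copied after each cell division by a maintenance methyltransferase and added anew by other methyltransferases. TET dioxygenases oxidise methylcytosine to hydroxymethylcytosine and further products, a step on the way to unmethylated cytosine. Vitamin C (ascorbate) raises the activity of these iron-dependent enzymes in stem cell cultures. Bisulfite sequencing does not separate methylcytosine from hydroxymethylcytosine, so a lower level here is a loss of the sum of both forms.

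The 4 libraries that chose the members were both untreated ones, vitamin C on day 5 and the combination on day 5. Levels in those are a description. L-proline alone on both days, vitamin C on day 2 and the combination on day 2 took no part in the choice. The median coverage of the shared CpGs was 27 to 56 reads per library, and 0.195% to 0.513% of reads at lambda phage cytosines, an unmethylated spike-in, read as methylated. The combination on day 5 was the shallowest library and the combination on day 2 the deepest. A member tile had 30 or more reads in its shallowest library, with a median of 62, when reads are summed over its CpGs.

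A read that covers several CpGs of a tile is counted once for each of them in such a sum. The CpGs of a member spanned a median of 79.5 bases, so many of them sit on the same reads. Divided by the number of CpGs, a member had a median of 28 reads in a library, and 10 at the least. Tests on summed reads therefore give p-values that are too small, and each count of calls below is followed by the count with reads counted once per tile. Counting once is approximate: it divides the summed reads by the number of CpGs, as if each read covered every CpG of the tile. Over members and libraries, the least covered CpG had a median of 64.6% of the reads of the most covered. It reached 90% or more in 26.8% of cases. P-values with reads counted once can therefore be too large. Intervals in the text are 95% Wilson intervals with reads counted once, and they cover counting error only.

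Without vitamin C the members were highly methylated in every library. In the untreated libraries, which chose them, the median member was at 84.5% on day 2, with tiles from 80% to 100%, and at 92.1% on day 5. With L-proline alone, which played no part in the choice, the median was 89.3% on day 2, with a range of 70.2% to 100%, and 93.7% on day 5, with a range of 79.6% to 100%. Of the 450 members, 428 stood at 80% or more in the L-proline library on day 2 and 449 on day 5. These are 95.1% and 99.8% of members, beside 98.9% and 99.6% of the other highly methylated tiles. High methylation was thus also seen in the 2 vitamin-C-free libraries that the choice did not use, but it was not particular to members.

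With vitamin C the members already lay lower on day 2. In the vitamin C library of that day the median member was at 72.2%, with tiles from 23.6% to 100%, and 107 members were still at 80% or more. In the combination on day 2 the median was 78.0%, with a range of 48.2% to 98.6%, and 179 members, or 39.8%, were at 80% or more. Of the highly methylated tiles that are not members, 65.2% and 84.7% were at 80% or more in these same libraries. On day 5, in the libraries that set the choice, the median was 63.4% with vitamin C and 65.9% with the combination. Few members lost most of their methylation: 17 of 450 were under 40% with vitamin C on day 5 and 5 with the combination.

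**Figure D1:**
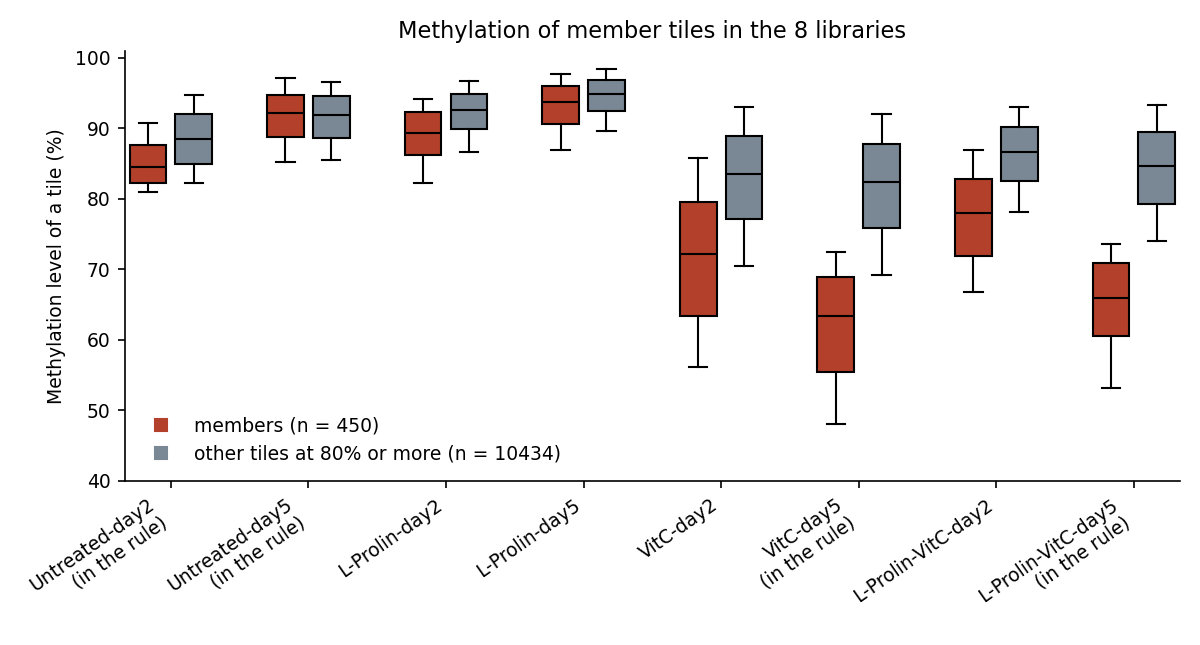
Methylation level in percent of the 450 member tiles (red) and of the other 10434 highly methylated tiles (grey) in each of the 8 libraries, with a line at the median, a box for the middle 50% of tiles and whiskers for the middle 80%. The members' boxes are above 80% in the 4 libraries without vitamin C and their medians lower in the 4 with it, at 72.2% and 78.0% on day 2.

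The comparison of the combination with L-proline alone on day 2 measures vitamin C in 2 libraries that the choice did not use. The members' median difference was -11.2 points, with the middle 50% of tiles from -16.4 to -6.80. Of the 450 members 431, or 95.8%, were lower, 255 (56.7%) by at least 10 points and 53 (11.8%) by at least 20. At least 10 points lower were 31.1% of all eligible tiles and 20.7% of the other highly methylated tiles. At least 20 points lower were 7.13% and 1.05% in the same order. The other 10434 highly methylated tiles had a median difference of -5.78, with 89.2% of them lower. All eligible tiles had one of -5.94, with 85.4% lower. Lower methylation in the combination library was general, and the members' median was further down.

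Fisher's exact test per tile on summed reads, adjusted by Benjamini-Hochberg over all eligible tiles, called 53 members lower by at least 20 points (11.8%). Among all eligible tiles 7.09% were called, and among the highly methylated tiles that are not members 1.05%. At an adjusted p under 0.05 and any size, 237 members (52.7%) were called lower, beside 34.4% of all eligible tiles and 29.3% of the other highly methylated tiles. With reads counted once per tile, the same test called 0 members lower by at least 20 points, and 0.0882% of all eligible tiles. At any size it then called 1 member and 0.137% of all eligible tiles. At an unadjusted p under 0.05, 73 of the 450 members were lower, beside 2930 of all 35149 eligible tiles. The same held for 394 of the 10434 other highly methylated tiles. The 2 ways of counting thus differ widely, and neither settles the day 2 difference of a single tile. The result is the position of the whole set of values.

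**Figure D2:**
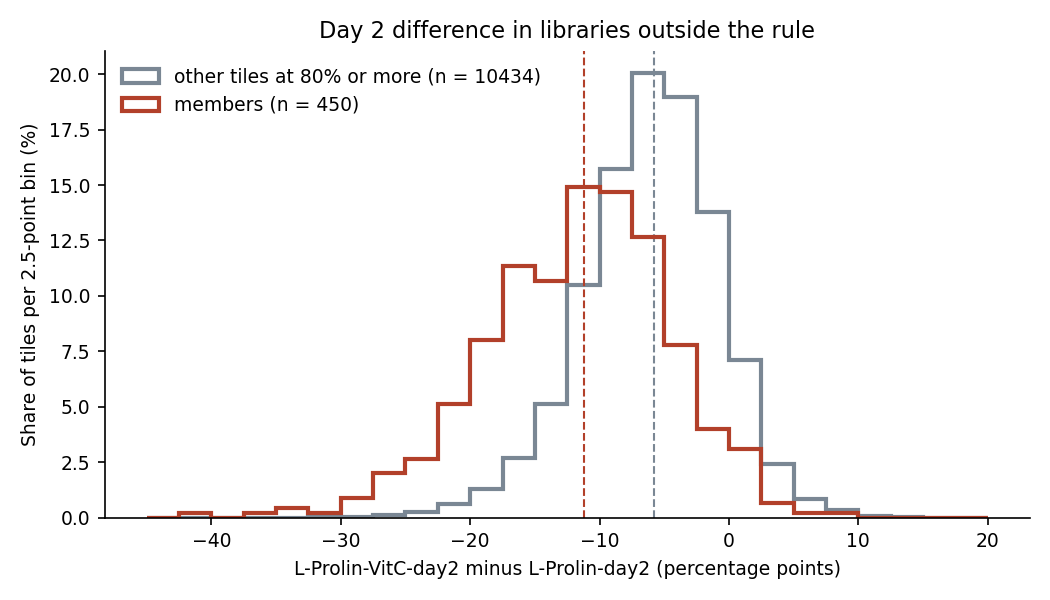
Share of tiles in percent per bin of 2.5 points against the methylation difference between the combination and L-proline alone on day 2, in percentage points, for members (red) and for other highly methylated tiles (grey), with dashed lines at the medians. The members' values lie further to the left, with a median of -11.2 against -5.78, and the 2 sets overlap over most of their range.

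The gap between members and other tiles was present in every class of level in the L-proline library of day 2. That library is also the one subtracted in the difference. Among tiles at 95% or more in the L-proline library of day 2, members had a median difference of -12.5 and other highly methylated tiles -6.79. Among those at 85% to 90% the medians were -10.6 and -4.97, and among those under 80% they were -8.71 and -0.553. Sorted by the untreated day 2 library, which is not in the difference but entered the choice, the trend with level was the opposite. At 80% to 85% members had a median of -11.8 and the others -7.23. At 95% or more, with 10 members, the medians were -5.48 and -3.44. Single CpGs behaved alike: 87.0% of the 1767 CpGs in members were lower in the combination, beside 76.6% of those in other highly methylated tiles. In 278 members, or 61.8%, every CpG was lower, and in 3 members none was. The share of other highly methylated tiles with every CpG lower was 41.0%.

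Vitamin C alone on day 2 gave a median difference of -12.6 from the untreated library, with 406 of 450 members lower. The other highly methylated tiles had a median of -5.29, with 77.3% lower, and all eligible tiles one of -3.51, with 72.6% lower. The untreated day 2 library set the starting level of 80%, so these values are a description. Fisher's exact test on summed reads called 119 members lower by at least 20 points (26.4%), where 6.87% of all eligible tiles were called. With reads counted once per tile it called 3 members, and 0.0427% of all eligible tiles.

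The day 2 pairs share no library, but the untreated one entered the choice, so what follows is again a description. In both pairs 392 members (87.1%) were lower, beside 69.5% of the other highly methylated tiles and 64.3% of all eligible tiles. Members at least 10 points lower in both pairs numbered 177, or 39.3%. The shares were 8.60% of the other highly methylated tiles and 14.3% of all eligible tiles. Lower in neither pair were 5 members, 322 of the other highly methylated tiles and 2220 of all 35149 eligible tiles. A limma fit of the 4 day 2 libraries, with terms for vitamin C and L-proline on log2 ratios of methylated to unmethylated reads, weighs the spread between libraries and has 1 residual degree of freedom. It called 0 members, and 0% of all tiles, with a smallest adjusted p of 0.173. At an unadjusted p under 0.05 it placed 233 members (51.8%) lower and none higher, beside 22.3% of all eligible tiles and 23.4% of the other highly methylated ones. The fit includes the untreated day 2 library, where members and the other highly methylated tiles, but not all eligible tiles, were required to be at 80% or more. The members' median vitamin C term was -1.18 on the log2 scale, against -0.76 for those others.

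Over time without vitamin C, most members were higher on day 5. From day 2 to day 5 with L-proline alone the median change was 4.37 points, and 90 members were lower on day 5. The other highly methylated tiles changed by a median of 2.18 and all eligible tiles by 3.98. Fisher's exact test called 3 members higher by at least 20 points (0.667%), where 9.0% of all eligible tiles were called. Tiles that start at 80% or more have little room for a rise of that size. With reads counted once per tile 0 members and 0.432% of all eligible tiles were called. At an unadjusted p under 0.05, 10 of the 450 members were higher, beside 2863 of all 35149 eligible tiles. The same held for 104 of the 10434 other highly methylated tiles.

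L-proline alone changed the members little against the untreated library of the same day, with median differences of 3.79 on day 2 and 1.54 on day 5. The other highly methylated tiles had 3.52 and 2.76. Set against vitamin C alone, the combination was higher in members by a median of 5.10 points on day 2, where the other highly methylated tiles had 2.87. On day 5 the difference was 2.46, and that of the other tiles 2.44. Whether L-proline changed the response to vitamin C was not tested.

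Between day 2 and day 5 the members went down further in the libraries with vitamin C, by medians of -9.11 with vitamin C alone and -12.6 with the combination. Both day 5 levels entered the choice, so these values are a description. With vitamin C alone 77 members were higher on day 5, and with the combination 25. Of the 450 members, 354 were lower on day 5 than on day 2 under both treatments. The same held for 3493 of the other 10434 highly methylated tiles and for 11512 of all 35149 eligible tiles. Those other highly methylated tiles had median changes of -1.17 and -1.68, with 44.2% and 39.6% of them higher on day 5. All eligible tiles had medians of -0.628 and -0.468, with 40.5% and 42.6% higher.

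The loss on day 5 was described by the choice itself. The median difference from the untreated library was -27.9 points with vitamin C and -24.8 with the combination. Fisher's exact test on summed reads called 450 members lower by at least 20 points with vitamin C and 447 with the combination, where 26.0% and 13.0% of all eligible tiles were called. Against L-proline alone on day 5, the combination was called lower in 394 members, beside 30.4% of all eligible tiles. With reads counted once per tile the 3 counts were 64, 5 and 184 members, beside 3.49%, 0.128% and 12.0% of all eligible tiles. The choice used these libraries, and nothing is read from the counts.

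A choice by vitamin C on day 5 alone leaves the combination on day 5 free to be examined. It took 1781 tiles. In the combination these tiles differed from L-proline alone on day 5 by a median of -15.0, and 576 of them (32.3%) were called lower by at least 20 points. All eligible tiles had a median of -12.2 with 30.4% called. All 10884 highly methylated tiles, the 1781 among them, had a median of -10.3 with 14.3% called. Counting reads once per tile, 12.7% of the 1781 tiles and 4.91% of the highly methylated ones were called. The call share of the 1781 tiles is close to that of all eligible tiles, which include many at intermediate levels.

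Members with the larger day 5 loss were also lower on day 2. The 151 members at 20 to 25 points below the untreated library with vitamin C on day 5 had a median day 2 difference, combination minus L-proline, of -9.58. It was -10.9 in the 122 members at 25 to 30 points, -12.5 in the 112 at 30 to 40, and -16.4 in the 65 at 40 or more. All 65 of the last class were lower on day 2. Across the 450 tiles the Pearson correlation of both differences was 0.303 and the Spearman correlation 0.268. The 4 libraries behind it are distinct, but all tiles share those libraries and their depth. Across all 10884 highly methylated tiles the Pearson correlation was 0.323, so the relation is not peculiar to members.

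**Figure D3:**
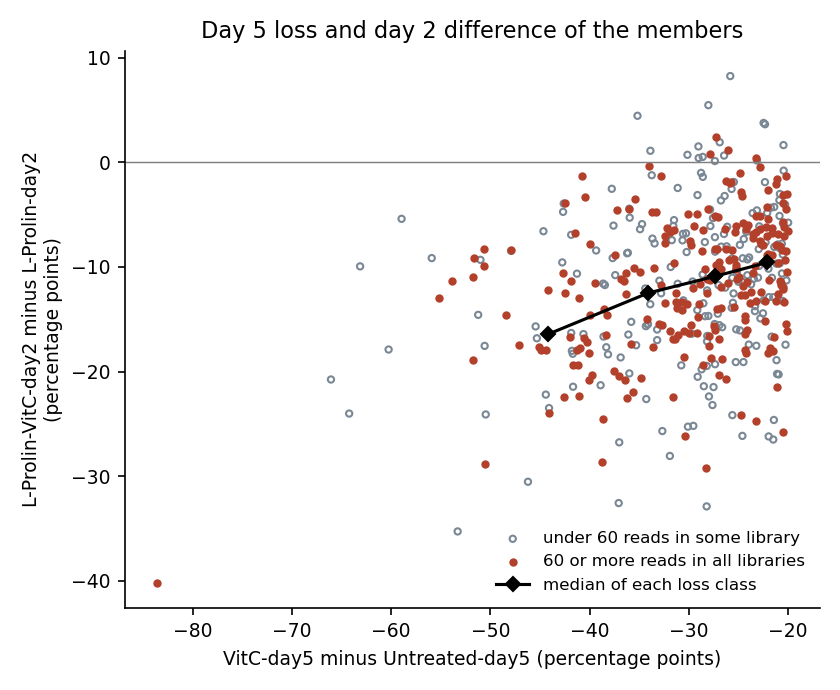
Difference between the combination and L-proline alone on day 2 against the difference between vitamin C and untreated on day 5, both in percentage points, with 1 point per member tile (filled with 60 or more summed reads in all libraries, open otherwise) and diamonds for the medians of 4 loss classes. Tiles with a larger day 5 loss tend to lie lower on day 2, from a median of -9.58 in the class with the smallest loss to -16.4 in the class with the largest, with wide scatter.

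The member with the largest day 2 difference, among the 240 members with 60 or more summed reads in every library, lies at chr4:57858001-57859000 in the mm9 build and holds 4 CpGs. It stood at 88.8% untreated, 88.4% with L-proline, 32.5% with vitamin C and 48.2% with the combination on day 2. On day 5 it stood at 98.7%, 88.7%, 15.1% and 30% in the same order. All 4 libraries with vitamin C are below all 4 without it. The combination on day 2 has an interval of 35.6% to 62.5% and L-proline alone one of 73.4% to 95.3%. The difference of -40.2 points had an adjusted p of 1.2e-12 by Fisher's exact test on summed reads and 0.118 with reads counted once. Vitamin C alone differed from untreated on day 2 by -56.3 points, with an adjusted p of 0.00352 by Fisher's exact test with reads counted once.

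Each of the 4 CpGs of that tile shared in the difference. At position 57858110 the level was 84.6% with L-proline and 42.9% with the combination on day 2. At 57858154 it was 84.7% and 40.5%. At 57858166 it was 100% and 56.8%, and at 57858174 it was 95% and 62.2%. The last pair of sites had equal read numbers in all 8 libraries, as sites on the same reads do.

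The next 4 tiles in order of the day 2 difference had intermediate levels in the libraries with vitamin C. The tile chr5:33785001-33786000, with 7 CpGs within 41 bases, was at 95.7% with L-proline and 66.5% with the combination, a difference of -29.2. Its adjusted p was 3.36e-09 by Fisher's exact test on summed reads and 0.514 with reads counted once. The tiles chr4:153543001-153544000 with 3 CpGs, chr1:160886001-160887000 with 4 and chr5:136693001-136694000 with 5 had differences of -28.9, -28.7 and -26.1. With reads counted once their adjusted p-values by Fisher's exact test were 0.258, 0.368 and 0.395.

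At the other end are the 5 deep members with the smallest day 2 difference between the combination and L-proline. They did not differ in that pair beyond counting error, with adjusted p-values of 0.645 to 1 by Fisher's exact test on summed reads. The tile chr12:81119001-81120000, with 3 CpGs, was at 87.6% with L-proline and 88.0% with the combination on day 2, and at 87.5% in both the untreated and the vitamin C library. On day 5 it was at 97.9% untreated, 74.6% with vitamin C and 74.2% with the combination. The tiles chr7:3583001-3584000, chr15:73526001-73527000 and chr1:179502001-179503000 had day 2 differences of 2.36, 1.14 and 0.754. The tile chr5:67820001-67821000 differed by -0.332 on day 2, but its level with L-proline was only 73.3% on day 2 and 97.4% on day 5. In these tiles a day 5 loss of 20 points or more was measured with no clear day 2 difference between the combination and L-proline, the pair that picked them. Vitamin C minus untreated on day 2 was -5.05, -6.05, -5.07 and -8.01 in the tiles on chromosomes 7, 15, 1 and 5.

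The 5 deep members with the lowest day 5 levels against untreated include the tiles on chromosome 4 just described, chr4:57858001-57859000 and chr4:153543001-153544000. The tile chr8:25716001-25717000 was at 80.4% untreated and 37.3% with vitamin C on day 2, and at 85.6%, 43.9% and 42.1% in the untreated, vitamin C and combination libraries of day 5. Its day 2 level was 83.8% with L-proline and 64.4% with the combination. The tile chr6:112677001-112678000 went from 67.5% on day 2 to 41.1% on day 5 in the combination. The tile chr8:72707001-72708000 was at 39.7% on day 2 and 36.7% on day 5 with vitamin C, against 60.9% and 55.6% with the combination.

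Other patterns were chosen after their values were seen. The tile chr13:112157001-112158000 was at 93.1% untreated and 23.6% with vitamin C on day 2, the lowest value among members there, and back at 63.0% on day 5. In the combination it was at 75.8% and 55.0%. Its day 2 difference between vitamin C and untreated, -69.6 points, had an adjusted p of 6.07e-05 by Fisher's exact test with reads counted once. The tile chr9:97176001-97177000 was at 84.1% with vitamin C on day 2 and 21.7% on day 5, while the combination had 73.4% and 62.5%. The tile chr1:52996001-52997000 was at 24.1% and 25.2% in the day 5 libraries with vitamin C.

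At the threshold itself the members are a cut through a continuum. Just inside it, the smaller of both day 5 differences was -20 points at chr19:6081001-6082000 and chr18:34840001-34841000 and -20.01 at chr1:37077001-37078000. Just outside it, it was -19.99 points at chr10:69593001-69594000 and -19.97 at chr5:143926001-143927000 and chr17:26416001-26417000. The tile chr5:143926001-143927000 is no member, but it had a day 2 difference of -32.3 between the combination and L-proline.

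Members were spread over all 19 autosomes. Chromosome 1 held the most, 42. Of the highly methylated tiles of a chromosome, the share that are members ran from 2.62% on chromosome 12 (12 of 458) to 7.10% on chromosome 18 (23 of 324). Along the chromosomes, the share in each 20% of the length was 3.50% to 4.66%. Members were mostly alone: the median gap between neighbouring members was 2282 kb, and 19 pairs lay under 100 kb apart. The only adjacent pair was chr4:107240001-107241000 and chr4:107241001-107242000, which was at 93.0% and 91.4% with L-proline and at 86.7% and 84.4% with the combination on day 2.

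The tiles beside members were measured without being used as members. Within 5 kb of a member lay 201 eligible tiles that are not members themselves, with a median day 2 difference of -6.96 between the combination and L-proline. Around the other highly methylated tiles the same median was -6.28 over 3463 tiles. At 11 to 50 kb the medians were -6.37 and -6.28. On day 5, the combination lay -14.9 points from L-proline in the 201 tiles and -12.5 in the 3463. The 201 tiles started lower, at a median of 61.9% in the untreated day 2 library against 74.7%. Among neighbours that were highly methylated themselves, 67 and 1398 tiles, the day 2 medians were -6.84 and -5.72. Their day 5 medians were -12.1 and -9.59. Single distances vary more: in steps of 1 kb up to 10 kb, each with 30 to 47 tiles, the day 2 median beside members ran from -9.8 at 2 kb to -5.95 at 5 kb. Around the other highly methylated tiles it ran from -6.52 to -5.58.

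**Figure D4:**
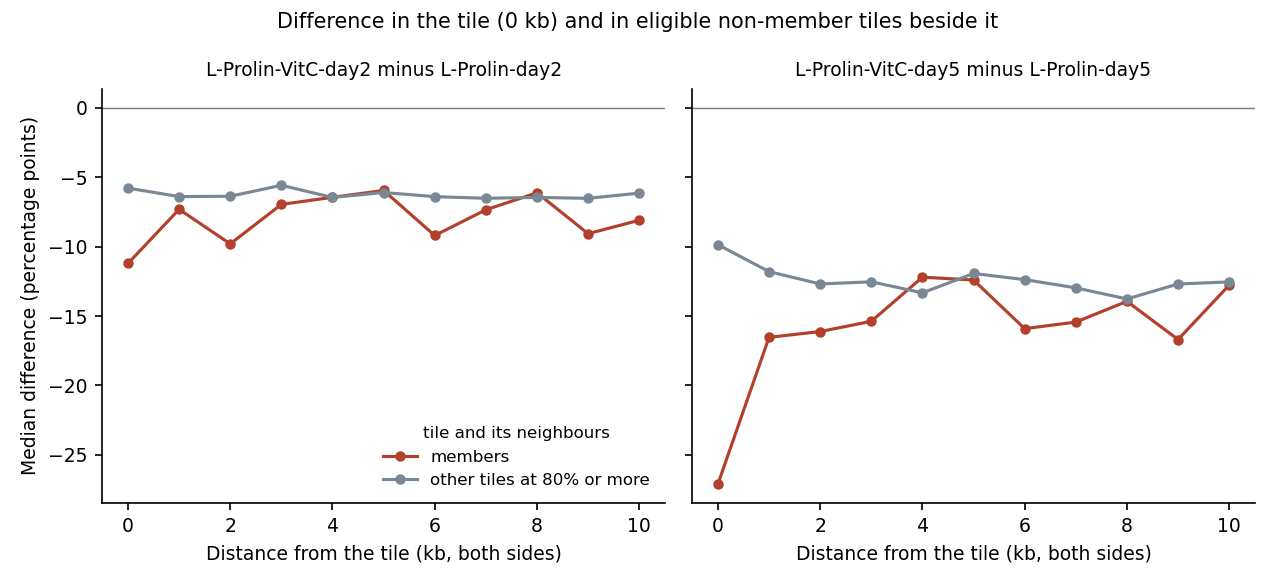
Median methylation difference in percentage points at the tile itself (0 kb) and in eligible non-member tiles at increasing distance on both sides, in kb, around members (red) and around other highly methylated tiles (grey), for the combination minus L-proline on day 2 (left) and day 5 (right). The drop at 0 kb is deeper for members, with -11.2 on day 2 and, where the choice used the combination library, -27.1 on day 5, while their neighbours within 5 kb have pooled medians of -6.96 and -14.9. The neighbours are of any starting level and are not matched between the 2 sets.

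Members lay more often near tiles of low methylation than the other highly methylated tiles did, but less often than eligible tiles in general. A tile under 10% in the untreated day 2 library was found within 5 kb of 66 members (14.7%), of 8.17% of the other highly methylated tiles, and of 6.61% of the 1422 highly methylated tiles that stayed within 5 points of untreated in both day 5 libraries. Such a tile was the direct neighbour of 16 members (3.56%) and of 0.767% of the other highly methylated tiles. Of all eligible tiles, 26.5% had a low tile within 5 kb and 16.45% had one as direct neighbour. Read the other way, 16 of the 96 highly methylated tiles next to a low tile were members (16.7%), and 3.33% of those over 100 kb away. Among tiles with 60 or more reads in all libraries these shares were 15.8% (9 of 57) and 2.76%. At 2 to 5 kb the share was 6.08% at all depths, but 3.85% with 60 or more reads. That is near the 3.63% at 21 to 100 kb with the same reads, so at this depth the excess was seen in direct neighbours only. The low tiles were found with the untreated day 2 library, which also entered the choice, and no test was made.

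These 16 members at an edge were at a median of 90.2% with L-proline and 73.7% with the combination on day 2, and all 16 were lower in the combination. Their median difference was -15.1, and that of the other highly methylated tiles at an edge -7.71. The low tiles beside them held a median of 19.5 CpGs and had medians of 0.992% to 3.98% in the 8 libraries. The highest single value was 20.96%, with L-proline on day 5. On summed reads Fisher's exact test called 4 of the 16 members lower, beside 7.09% of all eligible tiles, among them chr4:153543001-153544000 and chr3:36419001-36420000. It called 0 of them with reads counted once per tile, as of all 450 members.

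Depth also moved with membership. Of highly methylated tiles with 30 to 44 reads in the shallowest library 4.98% were members, with 45 to 59 reads 5.91%, and with 200 or more 2.61%. The members' median day 2 difference between the combination and L-proline ran from -11.5 to -10.2 over the depth classes. That between vitamin C and untreated was -16.9 at 30 to 44 reads and -11.2 at 200 or more. Starting level moved with it too, since 8.45% of tiles at 80% to 85% in the untreated day 2 library were members and 1.04% of those at 95% or more. CpG number had a smaller range, from 4.57% of tiles with 3 CpGs to 3.32% of those with 6 to 10. The part of chance in the choice at low depth was not tested.

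**Figure D5:**
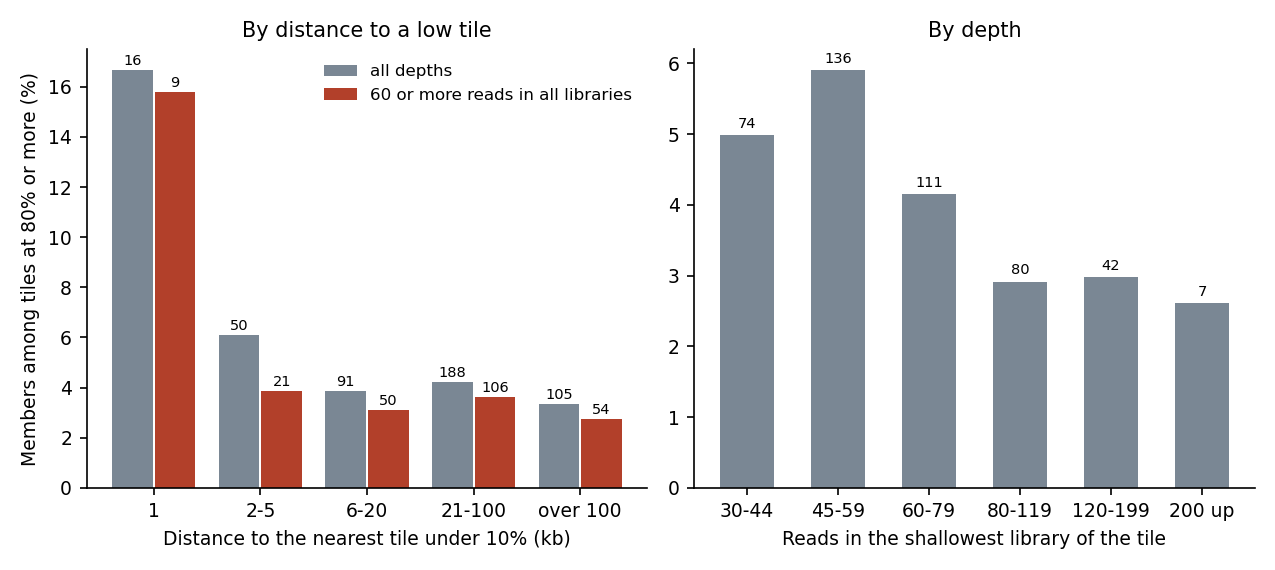
Share of highly methylated tiles that are members, in percent, by distance to the nearest tile under 10% in kb (left, in red for tiles with 60 or more reads in all libraries) and by the summed reads of the shallowest library (right), with the number of members over each bar. The share is 16.7% for tiles beside a low tile and 3.33% over 100 kb away, and it is 4.98% at 30 to 44 reads and 2.61% at 200 or more.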

How the data were processed

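Per the submitters' processing notes the authors named BSMAP 2.88, CASAVA and the mm9 build, with no role given. The authors deposited, for each library, the coverage of each CpG and its methylation level as a fraction (0 to 1). Every listed CpG had at least 10 reads. Methylated reads were computed as fraction times coverage, rounded, and summed over the CpGs of a tile. Only mm9 coordinates are given: no gene annotation or sequence of that build was used here.

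The members and lists were chosen with earlier results of these data known. Fisher's exact tests were two-sided, and a call needed an adjusted p under 0.05 and 20 points. limma 3.58.1 in R 4.3.3 used log2 ratios with a pseudocount of 1, and a call needed 10 points. Tiles named in the text, among members with 60 reads in all libraries, are the 5 with the largest and the 5 with the smallest fall from L-proline to the combination on day 2 and the 5 with the lowest day 5 levels against untreated. Adjacent members and the 3 tiles on each side of the threshold were added.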

Additional observations from a re-analysis of the deposited data

Results flagged for a closer look

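The members' median change from day 2 to day 5 went in opposite directions with and without vitamin C. The medians of the other highly methylated tiles did so too, with smaller falls. Untreated libraries had a median change of 6.5 points, and those with L-proline had 4.37. Vitamin C alone gave -9.11 and the combination -12.6. In the same order, the other highly methylated tiles had medians of 2.92, 2.18, -1.17 and -1.68. The medians of all eligible tiles had the same signs, but with vitamin C they were only -0.628 and -0.468, with 40.5% and 42.6% of tiles higher on day 5. The 1422 highly methylated tiles that stayed within 5 points of untreated on day 5 had medians of 2.14 and 0.695 there. The fall with vitamin C was thus not general. The members' median changes were larger than those of the other highly methylated tiles. The difference between changes with and without vitamin C was not tested. The untreated libraries and the day 5 libraries with vitamin C entered the choice of members, and the L-proline libraries did not. With vitamin C alone 77 members were higher on day 5, and with the combination 25.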

How the results depend on the processing

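The direction of each median was the same under every alternative tried. The number of members, 450, was 68 with at least 20 reads per CpG, 110 with 5 to 10 CpGs, 48 at 90% or more, 59 at 30 points, and 240 with 60 or more summed reads, an alternative chosen after seeing the data. The median day 2 difference between the combination and L-proline was -6.77 at 90%, -16.4 at 30 points and -8.96 with members chosen by vitamin C alone. Brackets below give the share of members called and then that of all tiles of the same setting. The 53 calls in it became 9 with 20 reads (13.2%, 4.27%), 11 with 5 CpGs (10%, 5.65%) and 2 at 90% (4.17%, 7.09%). They became 16 at 30 points (27.1%, 7.09%), 102 with vitamin C alone (5.73%, 7.09%) and 0 when thinned to 30 reads (0%, 0.117%). With no minimum difference they were 237 (52.7%, 34.4%) and with 60 reads 23 (9.58%, 6.42%). With reads counted once per tile, also chosen after seeing the data, they were 0 (0%, 0.0882%). The share of members called was 11.8%, beside 7.09% of all eligible tiles. It was below that 7.09% at 90% (4.17%) and with vitamin C alone (5.73%). All eligible tiles include many at intermediate levels, so they are not a like comparison for highly methylated tiles. With vitamin C alone the share was still above that of the highly methylated tiles that are not members, given earlier for this test. At 90% the share rests on 2 of 48 tiles, and no share of other tiles at 90% or more was computed. Vitamin C against untreated on day 2 had medians of -11.9 with 20 reads, -14.1 with 5 CpGs, -8.98 at 90% and -20.8 at 30 points. Its 119 calls on summed reads (26.4%, 6.87%) became 8 (11.8%, 3.41%), 32 (29.1%, 4.56%), 9 (18.8%, 6.87%) and 28 (47.5%, 6.87%) in that order. They became 2 when thinned (0.444%, 0.205%) and 183 with no minimum difference (40.7%, 17.7%). With 60 reads they were 60 (25%, 5.81%), and with reads counted once 3 (0.667%, 0.0427%). The L-proline change from day 2 to day 5 was 2.62 at 90% and 5.47 at 30 points. Its 3 calls became 0 with 20 reads, with 5 CpGs, at 90%, when thinned and with reads counted once, and 87 with no minimum difference. The tiles chosen by vitamin C alone had day 5 medians of -16.0 with 5 CpGs, -12.2 at 90% and -19.02 at 30 points. The tiles beside members had -3.32 with 20 reads (14 tiles), -7.66 with plain means, -8.04 with 5 CpGs, -5.48 at 90% and -8.01 at 30 points. limma called 0 members under every alternative it was run for. The 20 alternatives for 18 named tiles kept their values within counting error. They were plain means over the same CpGs, or a cut at 20 reads that left the tile's value unchanged. Such alternatives could hardly move a value, so nothing is read from them. No paired analysis was possible because each group is 1 library and the labels give no replicate numbers. With 1 library per group, differences between cultures cannot be told apart from treatment.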

Other observations

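Chromosome X was outside the choice. Of its 447 eligible tiles 49 were at 80% or more in both untreated libraries, and 1 of them (2.04%) met the same thresholds. That tile, chrX:35607001-35608000 with 3 CpGs, was at 95.3% untreated, 61.0% with vitamin C and 66.7% with the combination on day 5. On day 2 it was at 90.7% with L-proline and 85.7% with the combination.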
